A study of Homo sapiens with 6 samples.

Results

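Cells can be killed from the outside by death receptors or from the inside by mitochondria, and the 8 genes described here carry the main steps of both routes. They are the death receptor genes FAS, TNFRSF10A, TNFRSF10B and TNFRSF1A, the initiator caspase genes CASP8 and CASP9, APAF1 and XIAP. They were picked by name for their place in the pathway, with earlier results of these data known, and all 8 were found among the 58735 genes of the deposited table. RNA was sequenced from HCT116SCs, the CD44+CD326+ cells that immunomagnetic sorting took from HCT116, a human colorectal carcinoma cell line, and that were grown as spheres in serum-free medium with EGF, bFGF and B27. Both groups were transfected and harvested 48 h later. The 3 libraries named NC received a negative control siRNA and carry the genotype label WT, and the 3 libraries named siPSCA received siRNA against PSCA, the gene of prostate stem cell antigen, and carry the label PSCA knockdown. Which of the study's PSCA siRNA sequences was used for sequencing is not given in the sources used here. The titles of siPSCA 2 and siPSCA 3 carry other numbers after HCT, whereas their remaining labels name HCT116. All libraries come from 1 cell line and no label says that they were separate cultures, so p-values measure the spread between these libraries, which may be technical.

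In the extrinsic route a ligand binds a death receptor at the cell surface, the receptor gathers the adaptor FADD, and FADD brings molecules of caspase-8 together so that they activate each other. In the intrinsic route cytochrome c leaves the mitochondria and binds APAF1, which assembles into the apoptosome and activates caspase-9. Both routes end in the executioner caspases, and caspase-8 can also cut BID and so open the mitochondrial route. XIAP binds and inhibits caspase-9 and the executioners, and is itself countered by DIABLO and HTRA2. Colorectal cancer cells carry these receptors widely, and TNFRSF10A and TNFRSF10B (DR4 and DR5) are the receptors for TRAIL, the product of TNFSF10.

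Expression was measured as FPKM, fragments scaled to gene length and to the size of the library, which allows levels to be compared between genes per length. Libraries held 16099716 to 17302219 reads on genes. PSCA itself was barely read: it had 4, 12 and 15 reads in NC and 9, 9 and 7 in siPSCA, or FPKM 0.340 ± 0.185 (SD, n = 3) against 0.269 ± 0.0448 (SD, n = 3). In the limma fit without a minimum level its log2 fold change was -0.07 (SE 0.12, adjusted p = 0.728), so the PSCA reads did not tell the labelled groups apart, and every direction below is between libraries labelled siPSCA and NC. Of 8 markers of the labelled cells 7 were above a mean FPKM of 1, among them CD44 and EPCAM (CD326), and VIL1 was near 0. In limma at an adjusted p under 0.05, CD44 and CDH1 were lower in siPSCA (log2 fold changes -0.44 and -0.60). CDX2 and KRT8 were higher (0.70 and 0.22), and EPCAM, KRT18 and KRT20 did not pass. With the trend described below removed, CD44, CDH1 and CDX2 still passed, at -0.29, -0.60 and 0.39. KRT8 at -0.02 did not, and KRT18 was lower at -0.44. The summed FPKM of 10 markers of leukocytes, endothelium and fibroblasts was 4.66 to 6.87 in NC and 7.41 to 7.80 in siPSCA, most of it COL1A1, with CD3E and CD68 at 0 reads. The part of other cells in the results was not tested. NC 3 stood apart from its group: the chi-square per gene was 2.47 between NC 1 and NC 2 but 24.4 and 19.5 between NC 3 and these, and 2.40 to 4.15 within siPSCA. Fold changes also followed base composition, with a Spearman rho of 0.66 between log2 fold change and GC content over 13792 tested genes, so each of the 8 genes is given with its GC content and with its value after the trend on GC content and length had been removed from every library.

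Of the 8 genes, 2 rose and 2 fell in siPSCA. FAS and TNFRSF1A were higher, APAF1 and XIAP were lower, and TNFRSF10A, TNFRSF10B, CASP8 and CASP9 did not pass the threshold, an adjusted p under 0.05 in limma. That threshold was passed by 50.7% of all 13796 tested genes, 26.6% higher and 24.2% lower, so 4 of 8 is a share close to the background. In such bulk libraries, fewer cells expressing a gene and less RNA of it per cell cannot be told apart. The NC and siPSCA values did not overlap for 5 of the 8 genes, against 64.5% of all tested genes. Changes were small: the largest of the 8, that of FAS, was exceeded in absolute size by 38.0% of all tested genes. The median log2 fold change of the 8 was 0.11 and that of all tested genes 0.01. After the trend on GC content and length had been removed, 3 of the 8 passed the threshold, FAS and CASP8 higher and TNFRSF10B lower, against a background of 39.6%.

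**Figure D1:**
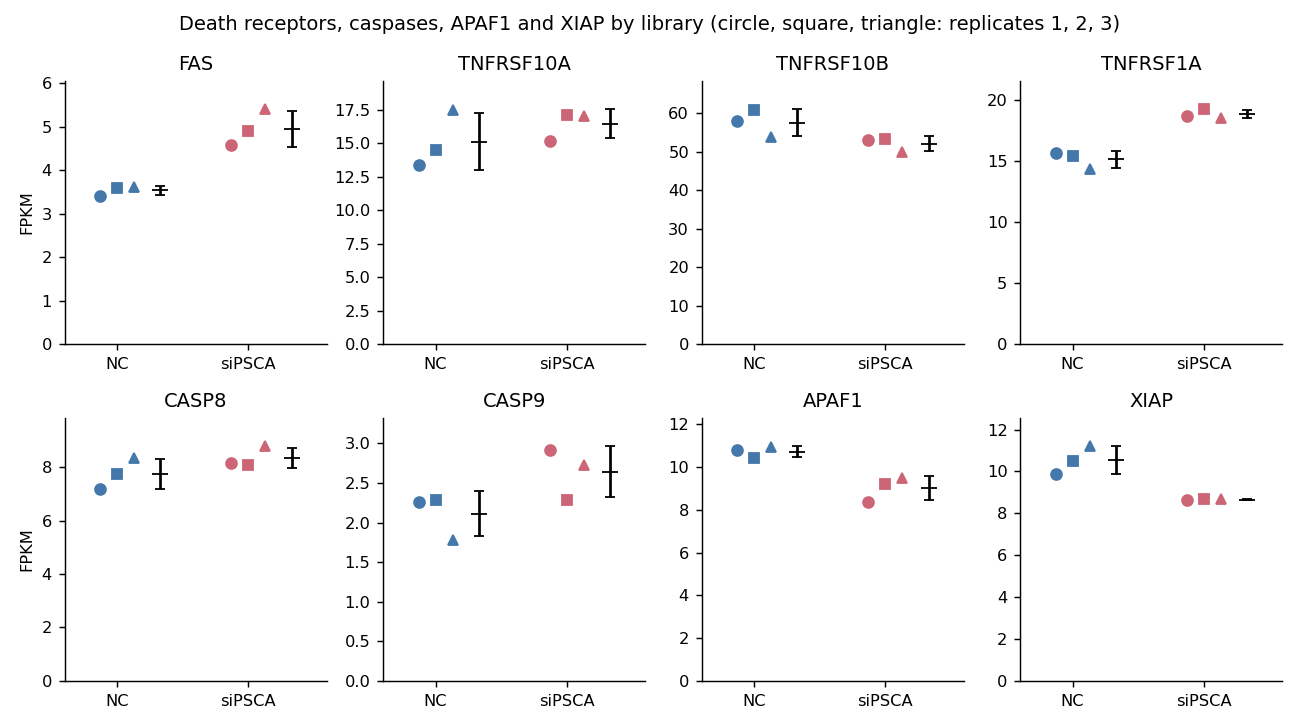
FPKM (y axes, from 0, a separate scale for each gene) in the 3 NC and 3 siPSCA libraries, with circle, square and triangle for replicates 1, 2 and 3 and a bar for the mean ± SD. NC and siPSCA do not overlap for FAS, TNFRSF10B, TNFRSF1A, APAF1 and XIAP, and XIAP in siPSCA spans only 8.63 to 8.67.

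Bases near the starts of the 4 genes that passed the threshold are shown as a description. They come from RefSeq promoter windows (250 bases before to 50 after a start site, GRCh38.p14) and are printed 5′ to 3′ on the gene's strand. For FAS, TNFRSF1A and APAF1 they end at the annotated gene start, which lies upstream of the window's start site. For XIAP they end at the window's start site, before the annotated gene start. Of several windows of a gene, the one with its start site nearest the gene start was used. Windows were matched for 6 of the 8 genes. Capitals mark matches on either strand to GGGCGG, the GC box, or to TGANTCA, a loosened form of the AP-1 motif that allows any middle base.
FAS: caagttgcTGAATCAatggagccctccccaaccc
TNFRSF1A: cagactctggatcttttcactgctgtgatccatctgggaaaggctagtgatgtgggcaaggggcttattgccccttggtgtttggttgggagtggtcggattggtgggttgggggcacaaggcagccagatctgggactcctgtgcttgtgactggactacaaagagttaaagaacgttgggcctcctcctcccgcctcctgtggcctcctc
APAF1: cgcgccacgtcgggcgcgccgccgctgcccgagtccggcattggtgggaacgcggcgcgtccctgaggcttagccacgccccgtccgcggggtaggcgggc
XIAP: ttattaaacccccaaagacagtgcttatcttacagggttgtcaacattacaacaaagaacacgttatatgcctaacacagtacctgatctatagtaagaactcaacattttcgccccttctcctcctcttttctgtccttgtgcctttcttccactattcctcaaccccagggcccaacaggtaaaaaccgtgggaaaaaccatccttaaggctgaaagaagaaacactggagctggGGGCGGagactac
They lie at chr10:88990548-88990581 (plus strand), chr12:6342115-6342326 (minus strand), chr12:98645040-98645140 (plus strand) and chrX:123859458-123859707 (plus strand). The 2 genes that rose and the 2 that fell differ within each pair. The whole windows of APAF1 and XIAP hold 42 and 10 CpG and have a GC content of 71.3% and 48.0%, and those of FAS and TNFRSF1A hold 18 and 4 CpG at 63.0% and 55.7%. Over 35116 windows of this length the medians were 14 CpG and 58.7%. A match to TGANTCA stood only in the window of FAS among the 6, as TGAATCA, and in 7.71% of all windows. Matches with only C or G in the middle were not counted apart. A GC box stood in the windows of FAS, CASP8, CASP9, APAF1 and XIAP, with 9 matches in that of CASP9 and 1 in each of the others, and in 45.0% of all windows. TATAAA stood in none of the 6 windows and in 11.5% of all windows. These are descriptions of letters in the windows, not of bound sites.

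Among the receptors, FAS (ENSG00000026103; chr10:88990582-89015785, plus strand, GRCh38) encodes the receptor of FAS ligand, whose death domain binds FADD directly. Its FPKM was 3.41, 3.59 and 3.62 in NC and 4.59, 4.90 and 5.41 in siPSCA. Every siPSCA library was above every NC library. The mean went from 3.54 ± 0.110 (SD, n = 3) to 4.96 ± 0.415 (SD, n = 3), resting on 244 to 266 reads against 330 to 419. In limma the log2 fold change was 0.39 (SE 0.07, 95% interval 0.22 to 0.56, adjusted p = 0.00591), and it passed the threshold with each library left out in turn. FAS has a GC content of 39.1%, and with the trend removed its log2 fold change was 0.65 (limma adjusted p = 0.000740). The exons of FAS share 380 bases (8.94%) with ACTA2 on the opposite strand, whose own FPKM was 0.740 to 1.01. Since the counting is not stated to use strand, reads from these bases cannot be told apart.

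TNFRSF1A (ENSG00000067182; chr12:6328757-6342114, minus strand) encodes the main TNF receptor, which signals through TRADD to NF-κB and, under other conditions, to caspase-8. Its FPKM was 15.6, 15.4 and 14.4 in NC and 18.7, 19.2 and 18.6 in siPSCA. The groups were well separated, with a mean of 15.1 ± 0.684 (SD, n = 3) against 18.8 ± 0.354 (SD, n = 3). The log2 fold change in limma was 0.30 (SE 0.05, 95% interval 0.17 to 0.42, adjusted p = 0.00537), and it passed the threshold with each library left out in turn. TNFRSF1A has the highest GC content of the 8 genes, 57.5%, and with the trend removed its log2 fold change was -0.06 (limma adjusted p = 0.378). The call of TNFRSF1A therefore depends on whether the trend is removed, and no other gene's exons overlap it.

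TNFRSF10B (ENSG00000120889; chr8:23020133-23069179, minus strand), the gene of the TRAIL receptor DR5, had the highest level of the 8. Its FPKM was 58.0, 60.8 and 53.9 in NC and 53.05, 53.24 and 49.88 in siPSCA. The groups did not overlap, but NC 3 and siPSCA 2 were close. The mean was 57.5 ± 3.46 (SD, n = 3) against 52.1 ± 1.89 (SD, n = 3), and 4787 to 5457 reads in NC and 4629 to 4880 in siPSCA stand behind it. The log2 fold change of -0.14 (SE 0.06, 95% interval -0.29 to 0.01, limma adjusted p = 0.0951) did not pass the threshold. It passed without NC 3 (log2 fold change -0.19, limma adjusted p = 0.0149) and with the trend removed (log2 fold change -0.21, limma adjusted p = 0.0294), and its GC content is 50%.

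TNFRSF10A (ENSG00000104689; chr8:23190452-23225126, minus strand) encodes the other signalling TRAIL receptor, DR4. Its FPKM was 13.4, 14.5 and 17.5 in NC and 15.2, 17.1 and 17.1 in siPSCA. The groups overlapped, since NC 3 had the highest value of all 6 libraries. The mean was 15.1 ± 2.12 (SD, n = 3) against 16.5 ± 1.09 (SD, n = 3), with a log2 fold change of 0.12 (SE 0.10, 95% interval -0.13 to 0.37, limma adjusted p = 0.366). Without NC 3 the log2 fold change was 0.22 and passed the threshold (limma adjusted p = 0.0348), and with the trend removed and all libraries kept it was 0.01 (limma adjusted p = 0.950). TNFRSF10A has a GC content of 50.1% and shares 224 exonic bases (7.59%) with TNFRSF10A-AS1 and 266 (9.01%) with AC100861.1, both on the opposite strand. TNFRSF10A-AS1 was read at FPKM 6.56 to 8.91.

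Among the initiator caspases, CASP8 (ENSG00000064012; chr2:201233443-201287711, plus strand) encodes the caspase of the receptor complex. Its FPKM was 7.20, 7.73 and 8.33 in NC and 8.14, 8.09 and 8.79 in siPSCA. The ranges overlapped, with NC 3 above siPSCA 1 and siPSCA 2. The mean was 7.75 ± 0.565 (SD, n = 3) against 8.34 ± 0.391 (SD, n = 3), and the log2 fold change of 0.10 (SE 0.07, 95% interval -0.07 to 0.26, limma adjusted p = 0.278) did not pass the threshold. CASP8 has a GC content of 42.6%, and with the trend removed its log2 fold change was 0.32 and passed (limma adjusted p = 0.00294).

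CASP9 (ENSG00000132906; chr1:15490832-15526534, minus strand) encodes the caspase of the apoptosome and had the lowest level of the 8. Its FPKM was 2.26, 2.29 and 1.78 in NC and 2.92, 2.29 and 2.73 in siPSCA. NC 2 and siPSCA 2 were alike, and NC 3 was lowest. With 162 to 210 reads in NC and 214 to 262 in siPSCA, the mean was 2.11 ± 0.283 (SD, n = 3) against 2.64 ± 0.324 (SD, n = 3). The log2 fold change was 0.23 (SE 0.11, 95% interval -0.03 to 0.49, limma adjusted p = 0.118), and a change of this size was not detectable against this spread. At a GC content of 52.8%, removing the trend gave 0.08 (limma adjusted p = 0.530).

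APAF1 (ENSG00000120868; chr12:98645141-98735433, plus strand), the scaffold of the apoptosome, was lower in siPSCA. Its FPKM was 10.8, 10.4 and 10.9 in NC and 8.37, 9.20 and 9.47 in siPSCA. The lowest NC library stood above the highest siPSCA library, and the mean fell from 10.7 ± 0.264 (SD, n = 3) to 9.02 ± 0.574 (SD, n = 3). In limma the log2 fold change was -0.23 (SE 0.06, 95% interval -0.37 to -0.08, adjusted p = 0.0218). The call was lost without NC 1, siPSCA 1 or siPSCA 2, with limma adjusted p-values of 0.0530, 0.0686 and 0.0609, and log2 fold changes of -0.22, -0.18 and -0.24. APAF1 has a GC content of 41.7%, and with the trend removed the log2 fold change was 0.03 (limma adjusted p = 0.599). It shares 750 exonic bases (9.48%) with ANKS1B on the opposite strand, which had almost no reads.

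XIAP (ENSG00000101966; chrX:123859724-123913979, plus strand) encodes the inhibitor of caspase-9 and the executioner caspases. Its FPKM was 9.87, 10.5 and 11.2 in NC and 8.63, 8.67 and 8.67 in siPSCA. All 3 siPSCA libraries lay together below the lowest NC library. The mean fell from 10.5 ± 0.673 (SD, n = 3) to 8.66 ± 0.0219 (SD, n = 3), with a log2 fold change in limma of -0.25 (SE 0.06, 95% interval -0.40 to -0.11, adjusted p = 0.0135). The call was lost without siPSCA 1 or siPSCA 2, with limma adjusted p-values of 0.0507 and 0.0522 at log2 fold changes of -0.25 and -0.26. XIAP has the lowest GC content of the 8 genes, 39.0%, and with the trend removed its log2 fold change was 0.09 (limma adjusted p = 0.119). The genome also holds XIAP pseudogenes, and how the counting treated reads they could share is not given in the sources used here.

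For the 5 genes whose groups did not overlap, the exact permutation test on FPKM (2-sided) gave p = 0.1, the smallest that 3 libraries against 3 allow. FAS had the same direction and passed the threshold under every fit that tested it with an adjusted p, whereas the directions of TNFRSF1A, APAF1 and XIAP turned once the trend was removed.

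**Figure D2:**
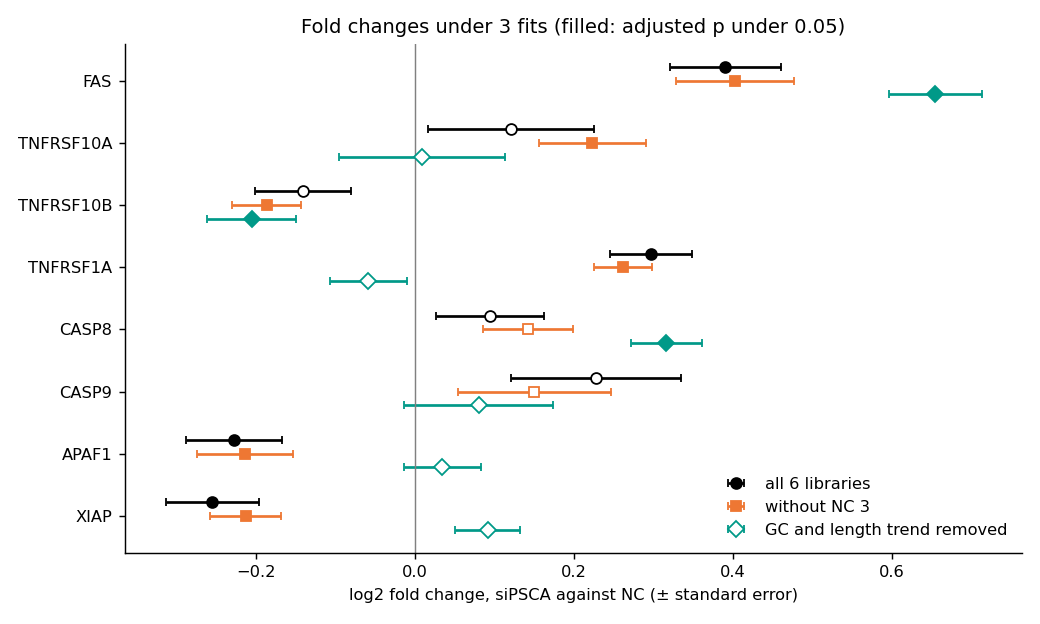
log2 fold change of siPSCA against NC (x axis, bars ± standard error) for each of the 8 genes in limma with all 6 libraries, without NC 3, and with the trend on GC content and length removed, filled where the adjusted p is under 0.05. FAS stays to the right in all 3 fits (0.39, 0.40 and 0.65), while TNFRSF1A, APAF1 and XIAP move to near 0 once the trend is removed (-0.06, 0.03 and 0.09).

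The order of levels was nearly the same in both groups. In NC, TNFRSF10B stood highest at a mean FPKM of 57.5, followed by TNFRSF1A and TNFRSF10A at 15.1 each, whose ranges overlapped. APAF1 and XIAP followed at 10.7 and 10.5 with overlapping ranges, then CASP8 at 7.75, FAS at 3.54 and CASP9 at 2.11, each apart from its neighbours. In siPSCA the ranges of TNFRSF1A (18.6 to 19.2) and TNFRSF10A (15.2 to 17.1) no longer overlapped, and XIAP overlapped both APAF1 and CASP8. Relative levels within a library were also compared as descriptions, with ratios chosen after values had been seen. They were taken on FPKM without removal of the trend, and how often ratios of other genes would overlap was not tested. Of the summed FPKM of the 4 receptors, TNFRSF10B made up 63.0% ± 2.30 in NC and 56.4% ± 1.54 in siPSCA, TNFRSF1A 16.6% ± 0.636 and 20.4% ± 0.0411, and FAS 3.88% ± 0.148 and 5.38% ± 0.499 (SD, n = 3 each). These 3 shares did not overlap between groups, and that of TNFRSF10A did. Once the trend was removed, the log2 fold changes of TNFRSF10B, TNFRSF1A and FAS were -0.21, -0.06 and 0.65. On the FPKM scale APAF1 and XIAP both fell. Their ratio was 1.02 ± 0.0629 in NC and 1.04 ± 0.0638 in siPSCA (SD, n = 3 each), with overlapping ranges. The ratio of APAF1 to CASP9 was 5.15 ± 0.855 in NC and 3.46 ± 0.578 in siPSCA (SD, n = 3 each), without overlap. Once the trend was removed, the log2 fold changes of APAF1, XIAP and CASP9 were 0.03, 0.09 and 0.08, and none passed the threshold.

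Around these 8 genes, 77 further genes of the pathway were listed, of which 76 had a row in the table and 58 were tested. Of these 58, 28 rose, 10 fell and 20 did not pass the threshold in limma, against 26.6% higher and 24.2% lower among all tested genes. Their median log2 fold change was 0.21 and that of all tested genes 0.01. Their median GC content was 50.5% against 48.1%, and with the trend removed 21 rose and 12 fell, against 39.6% of all genes in either direction. The median in that fit was 0.14, and 0.02 over all genes.

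Of 6 death ligands listed, 5 lay under the minimum level. Only TNFSF12 (TWEAK) was tested, at FPKM 2.99 ± 0.826 in NC and 2.80 ± 0.247 in siPSCA (SD, n = 3 each). Its log2 fold change of -0.05 did not pass (limma adjusted p = 0.804). TNFSF12 was at -0.51 with the trend removed and passed as lower (limma adjusted p = 0.0179). TNFSF10, the gene of TRAIL, had 1 to 4 reads in every library (FPKM 0.0279 ± 0.0192 in NC and 0.0597 ± 0.00752 in siPSCA, SD, n = 3 each), FASLG had 1 read in all 6 libraries together, and TNF had 0 to 2 reads in each.

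The receptor genes outside the 8 held the largest change of the pathway. TNFRSF10D encodes DcR2, a TRAIL receptor with a truncated death domain that binds the ligand without signalling death. Its FPKM was 60.4, 65.2 and 77.9 in NC and 18.1, 17.5 and 17.8 in siPSCA. The groups lay far apart, at 67.8 ± 9.02 (SD, n = 3) and 17.8 ± 0.317 (SD, n = 3), with a log2 fold change in limma of -1.86 (SE 0.09, adjusted p = 0.000215), and -1.89 with the trend removed. Only 0.254% of all tested genes had a larger absolute change. TNFRSF10D lies at chr8:23135588-23164030 between TNFRSF10B and TNFRSF10A, in a cluster whose order along the chromosome is TNFRSF10B, TNFRSF10C, TNFRSF10D and TNFRSF10A. TNFRSF10C, which encodes the membrane-anchored decoy DcR1, was at 2.57 ± 0.309 in NC and 2.82 ± 0.460 in siPSCA (SD, n = 3 each), with a log2 fold change of 0.10 (limma adjusted p = 0.511), and 26.0% of its exonic bases are shared with AC107959.4 on the same strand. Among the 4 neighbours TNFRSF10D thus fell. With all 6 libraries and the trend not removed, the fold changes of the other 3 lay between -0.14 and 0.12 and did not pass. With the trend removed TNFRSF10C was at -0.23 (limma adjusted p = 0.237), and TNFRSF10B passed at -0.21. Without NC 3, TNFRSF10A and TNFRSF10B passed, at 0.22 and -0.19. The ratio of TNFRSF10D to TNFRSF10B went from 1.19 ± 0.224 to 0.343 ± 0.0141 (SD, n = 3 each).

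**Figure D3:**
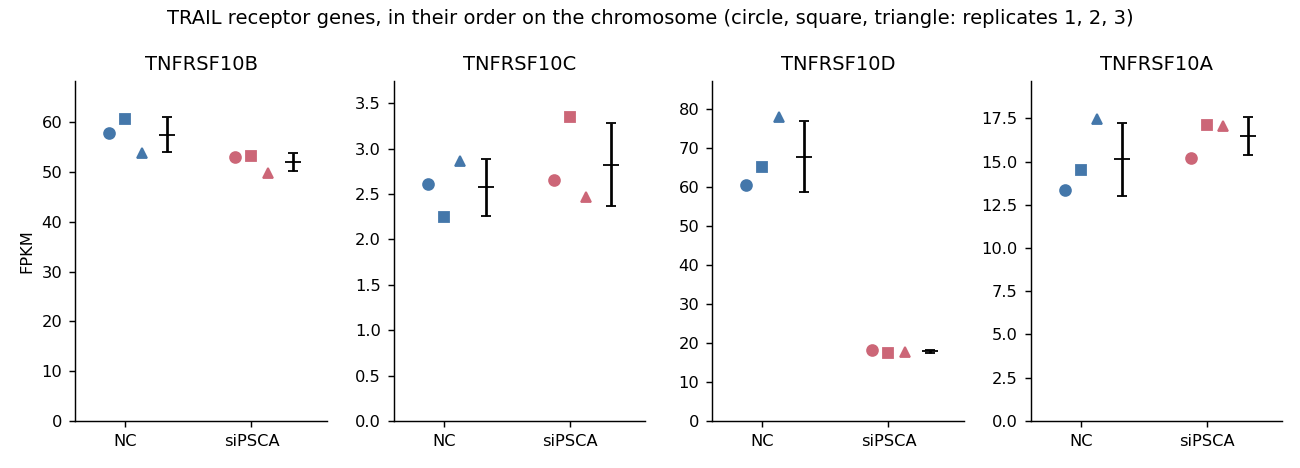
FPKM (y axes, from 0, a separate scale for each gene) of the 4 TRAIL receptor genes in the order in which they lie on chromosome 8, in the 3 NC and 3 siPSCA libraries, with circle, square and triangle for replicates 1, 2 and 3 and a bar for the mean ± SD. TNFRSF10D goes from 60.4 to 77.9 in NC to 17.5 to 18.1 in siPSCA, and the other genes change far less.

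Of the 8 other receptors and decoys tested, 4 rose and 1, TNFRSF10D, fell, against 26.6% higher and 24.2% lower among all tested genes. Once the trend was removed 2 rose and 2 fell, against 39.6% of all genes in either direction. TNFRSF12A, the TWEAK receptor, had the largest rise (log2 fold change 1.16), with FPKM 26.1, 23.6 and 10.3 in NC and 45.5, 46.4 and 36.9 in siPSCA. LTBR, the lymphotoxin beta receptor, rose by 0.74, TNFRSF21 (DR6) by 0.57 and TNFRSF25 (DR3) by 0.53 on the log2 scale. LTBR shares 422 exonic bases (6.72%) with SCNN1A on the opposite strand, which was read at FPKM 8.19 to 11.0. With the trend removed LTBR and TNFRSF21 still passed, at 0.53 and 0.44, whereas TNFRSF12A at 0.56 and TNFRSF25 at 0.13 did not (limma adjusted p = 0.0623 and 0.356). The other gene that was lower in that fit was NGFR, the p75 neurotrophin receptor, which went from 0.06 without the removal to -0.51 with it (limma adjusted p = 0.782 and 0.00230). The soluble decoy genes TNFRSF11B and TNFRSF6B had 0 reads in all libraries, which allows at most FPKM 0.0632 and 0.156 at 3 reads in a library. All exonic bases of TNFRSF6B are shared with the readthrough gene RTEL1-TNFRSF6B, which was read at FPKM 0.160 to 1.34, so reads of TNFRSF6B may have been counted there.

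Of 16 tested adaptors, kinases and regulators that act between receptors and caspases, 7 rose and 1 fell. Among all tested genes 26.6% were higher and 24.2% lower. Once the trend was removed 4 rose and 1 fell, against 39.6% of all genes in either direction. FADD, the adaptor that FAS and the TRAIL receptors bind, had FPKM 4.36, 3.28 and 2.05 in NC and 7.99, 8.10 and 7.19 in siPSCA. Its log2 fold change was 1.09 (SE 0.20, limma adjusted p = 0.00627) and 0.73 with the trend removed (limma adjusted p = 0.00675), on 65 to 135 reads against 241 to 265. FADD shares 1011 exonic bases (54.9%) with AP000879.1 on the opposite strand, which was at FPKM 0 in every library. How reads from shared bases were counted is not given in the sources used here, so the level of FADD may be understated. PIDD1, the scaffold that activates CASP2, rose by 1.28, SHARPIN of the linear ubiquitin ligase complex by 0.89 and TRADD, the adaptor of TNFRSF1A, by 0.87 on the log2 scale. With the trend removed PIDD1 passed at 0.59, while SHARPIN at 0.12 and TRADD at 0.19 did not. PIDD1 shares 107 exonic bases (1.82%) with RPLP2 on the opposite strand, which was read at FPKM 146 to 163. OTULIN, which removes linear ubiquitin chains, fell by 0.29 on the log2 scale, and was at -0.08 with the trend removed. The gene lower in that fit was RBCK1, also of the linear ubiquitin ligase complex, which went from 0.37 (limma adjusted p = 0.0783) to -0.29 (limma adjusted p = 0.00139), and CYLD, a deubiquitinase, was higher at 0.45. CFLAR, the gene of c-FLIP, which competes with caspase-8 for FADD, had a mean of 2.28 ± 0.105 in NC and 2.30 ± 0.0152 in siPSCA (SD, n = 3 each). Its log2 fold change was 0.01 (95% interval -0.15 to 0.17, limma adjusted p = 0.920), and 0.31 with the trend removed (limma adjusted p = 0.0110). The ratio of CASP8 to CFLAR overlapped between groups (3.402 ± 0.208 and 3.629 ± 0.171, SD, n = 3 each), whereas that of CASP8 to FADD did not (2.69 ± 1.24 and 1.08 ± 0.124, SD, n = 3 each). The level of the first ratio rests on the gene lengths used, 7243 bases for CASP8 and 22529 for CFLAR. In reads, CASP8 had 876 to 1160 per library and CFLAR 854 to 944. RIPK3, the kinase of necroptosis, had 0 reads, which allows at most FPKM 0.0548.

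Of 6 other caspase genes tested, 3 rose and 0 fell, against 26.6% higher and 24.2% lower among all tested genes. Once the trend was removed 5 rose and 0 fell, against 39.6% of all genes in either direction. Among those that rose, CASP6 went from 10.1 ± 0.156 to 14.0 ± 0.407 (SD, n = 3 each; log2 fold change 0.44) and CASP2 from 14.1 ± 0.215 to 16.1 ± 0.885 (SD, n = 3 each; 0.19). CASP6 at 0.53 and CASP2 at 0.37 passed with the trend removed (limma adjusted p = 0.000568 and 0.00285). CASP12 had 0 reads, which allows at most FPKM 0.09996.

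Apart from APAF1, CASP9 and XIAP, the list of apoptosome genes and regulators of the inhibitor of apoptosis proteins (IAPs) had 7 tested genes. All 7 passed the threshold, 4 higher and 3 lower, against 50.7% of all tested genes, and with the trend removed 3 were higher and 2 lower, against 39.6%. On the log2 scale HTRA2, a mitochondrial protease that binds XIAP, rose by 0.66, CYCS (cytochrome c) by 0.38, BIRC5 (survivin) by 0.33 and BID by 0.30. The 3 that fell were genes of IAPs, a family that also holds XIAP and BIRC5. BIRC5 rose, and XIAP, lower without the removal of the trend, was at 0.09 with it. BIRC3 (cIAP2) went from 3.33 ± 0.220 to 1.99 ± 0.109 (log2 fold change -0.54), BIRC2 (cIAP1) from 22.1 ± 1.69 to 15.3 ± 0.388 (-0.50) and BIRC6 from 12.0 ± 0.827 to 8.84 ± 0.706 (-0.40; SD, n = 3 each). These genes are low in GC content, 34.8% for BIRC3 and 38.0% for BIRC2. With the trend removed BIRC2 and BIRC3 still passed, at -0.21 and -0.19 (limma adjusted p = 0.00851 and 0.0487), and BIRC6 at -0.10 did not. CYCS, BIRC5 and BID passed at 0.58, 0.17 and 0.22, and HTRA2 at 0.17 did not. DIABLO lay under the minimum level, at 0.535 ± 0.173 and 0.661 ± 0.105 (SD, n = 3 each). It shares 29.6% of its exonic bases with another gene model of the same name and strand, and 16.8% with AC048338.1 on that strand. How reads of shared bases were counted is not given in the sources used here, so its level may be understated.

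Of 10 caspase substrates and nucleases, 6 rose and 2 fell, against 26.6% higher and 24.2% lower among all tested genes. Once the trend was removed 4 rose and 1 fell, against 39.6% of all genes in either direction. The nuclease gene ENDOG (log2 fold change 1.09), LMNA (lamin A/C, 0.62), GSN (gelsolin, 0.42) and DFFB (the caspase-activated DNase, 0.40) had the largest rises, and ROCK1, a kinase that caspases activate by cutting, fell by 0.83 and PAK2 by 0.24 on the log2 scale. With the trend removed PAK2 was at 0.06, and the other 5 kept their direction and passed, with ENDOG at 0.37, LMNA at 0.16, GSN at 0.44, DFFB at 0.23 and ROCK1 at -0.49. Of 10 transcription factors known to act at 1 or more of the 8 genes, 4 rose and 3 fell, against 26.6% and 24.2% of all tested genes. Once the trend was removed 3 rose and 5 fell, against 39.6% of all genes in either direction. E2F1 rose by 0.81, TP73 by 0.64 and IRF1 by 0.26 on the log2 scale. DDIT3 (CHOP), a known activator of TNFRSF10B, fell by 0.80 and SP1 by 0.45 on the log2 scale. With the trend removed IRF1 at 0.16 no longer passed, and E2F1 (0.25), TP73 (0.20), DDIT3 (-0.80) and SP1 (-0.30) did. ATF4 and RELA, at -0.02 and -0.03 without the removal, were lower with it, at -0.34 and -0.33 (limma adjusted p = 0.00938 and 0.0245). Nothing in these libraries measured binding of the factors or protein levels.

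Genes whose profiles over the 6 libraries were most like those of the 8 were found by the Euclidean distance between log2(FPKM + 1) values centred on the gene mean, among protein-coding tested genes. The nearest were CASTOR3, TRAF3IP2 and TMX2 for FAS (distances 0.0756 to 0.0845), NEIL2, RBM19 and FCF1 for TNFRSF1A (0.0397 to 0.0501), UBE3D, PSMD10 and DENND3 for TNFRSF10B (0.0318 to 0.0641), and DENND5B, NMNAT1 and MSN for TNFRSF10A (0.0892 to 0.0975). For the caspases they were TDG, IPO9 and ERBB3 for CASP8 (0.0213 to 0.0308) and HOXB3, PIGG and COQ10A for CASP9 (0.0928 to 0.114). DEPDC1, CEP97 and MANBA were nearest to APAF1 (0.0218 to 0.0487), and SAV1, TENT4B and MPHOSPH8 to XIAP (0.0385 to 0.0409). CASP8 and APAF1 had the closest partners, and CASP9 and TNFRSF10A the most distant. None of the 8 genes was among the nearest of another.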

How the data were processed

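RNA sequencing libraries (NEBNext Ultra, paired-end) were made from HCT116SCs, 3 with NC siRNA and 3 with siPSCA, grouped by the labels. The authors deposited FPKM values for 58735 genes with gene length; the build is GRCh38, and all 58735 gene positions are those of GENCODE 29. The aligner, counter and strand setting are not given in the sources used here. FPKM times length was a whole multiple of 1 step for 100% of values (tolerance 0.01), so reads were recovered, with library totals of 16803235 to 18218661. Limits at 0 reads were set at 3 reads and cover counting error only.

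limma 3.58.1 (R 4.3.3; lmFit, then eBayes with a trend; 2-sided) was fitted to log2(FPKM + 1), and fold changes on this scale understate changes of low genes. Tests were limited to the 13796 genes whose mean FPKM reached 1, p-values were adjusted by the Benjamini-Hochberg method over all of them, and genes under the minimum were fitted without one. Every adjusted p is from limma. In 1 alternative the trend on GC content and length of the longest transcript was removed from each library by splines with 5 degrees of freedom. Others were a pseudocount of 0.1, no minimum or a minimum FPKM of 5, TPM, median scaling, limma-voom on recovered reads, a replicate block, an unadjusted p under 0.05 with a log2 fold change beyond 0.5, and each library left out. Removing the trend without NC 3 was added after the data had been seen. The script was tested on simulated data. Python 3.11.15, pandas 2.3.3, numpy 2.4.6, scipy 1.17.1 and matplotlib 3.10.9 were used.

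The 8 genes and the pathway lists were chosen with earlier results of these data known. All 8 genes are named, with up to 4 genes of each list that passed the threshold with the largest change in each direction, some genes fixed whatever their values (CFLAR, FADD, BID, CYCS, DIABLO, TNFSF10, TNFRSF10C, TNFRSF10D, BIRC2, BIRC3 and others), and the 3 nearest profiles of each gene. Ratios, FASLG, TNF, TNFSF12, NGFR, RBCK1, CYLD, ATF4, RELA and genes at 0 reads were chosen after values had been seen. SEPT4 matched no row. Values of some genes counted in the lists are not reported here.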

Additional observations from a re-analysis of the deposited data

How the results depend on the processing

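Of the 8 genes, 2 rose and 2 fell with all 6 libraries. The count that rose was 1 at a minimum FPKM of 5, where FAS was not tested, and 2 to 3 with a library left out. The count that fell was 0 to 3 with a library left out, and 1 with the trend on GC content and length removed, whether with all libraries, with the replicate block or without NC 3, TNFRSF10B in place of APAF1 and XIAP. Both counts were 0 at an unadjusted p under 0.05 with a log2 fold change beyond 0.5; at an unadjusted p alone 4 of the 8 passed. The pathway counts of 28 and 10 became 15 and 5 under that rule and were 20 to 29 and 9 to 11 with a library left out. Directions turned once the trend was removed: TNFRSF1A was at -0.0582, APAF1 at 0.0350 and XIAP at 0.0921, with or without the replicate block, and at -0.0164, 0.0142 and 0.0967 without NC 3 as well. Base composition is part of that fit's construction; what gave rise to the trend was not tested. TNFRSF10B passed on the TPM scale (-0.19, limma adjusted p = 0.0319). The replicate numbers were only shared, since same-numbered libraries deviated together with r of 0.0955, 0.0132 and 0.134; with the replicate block alone 2 rose and 2 fell, the same 4 genes, and 6725 genes passed in all against 7001. FAS and CASP9, with the fewest reads, are least precise in depth, and PSCA with 4 to 15 reads gives no check of the knockdown.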
